A study of Mus musculus with 16 samples.

Results

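The aminoacylase genes Acy1 and Acy3 were followed in the kidneys of mice lacking Slc15a2, the gene of the peptide transporter PEPT2. They are 2 of 6191 genes tested, and each was measured by 1 of the 20205 probes on a spotted cDNA array. Both were chosen by their spread between the knockout kidneys on these same 16 arrays, so that spread is described here and is not tested. The knockout group held 4 Pept2-/- males, numbered 1 to 4, from a Pept2+/- line of mixed C57BL/6 and 129Sv background, killed in the morning at 88 (±2) days of age. The right kidney of each was hybridised on 4 arrays against a single pool of RNA from the right kidneys of 5 Pept2+/+ mice. The knockout RNA was in channel 1 on 2 arrays of each mouse and in channel 2 on the others, so arrays are technical replicates and n is 4 mice. The wild-type kidneys were pooled, so nothing is known of how Acy1 and Acy3 vary among them, and all ratios lean on that single pool. In whole kidney a lower ratio of a transcript confined to some cells can mean fewer such cells or less of the transcript in each cell, and these cannot be told apart.

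Aminoacylases cut the acyl group from N-acylated amino acids, which arise when acetylated proteins and peptides are broken down. Aminoacylase 1, the product of Acy1, is a cytosolic zinc enzyme that handles many aliphatic N-acetyl amino acids, N-acetylmethionine among them. Aminoacylase 3, the product of Acy3, acts on N-acetylated aromatic amino acids and on mercapturic acids, the N-acetylcysteine conjugates through which the kidney disposes of electrophiles. Both are prominent in the proximal tubule, which also takes up small peptides from the filtrate.

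The labels do not say which channel was divided by which in the deposited log2 ratios. Slc15a2, the deleted gene, was negative on each of the 8 arrays that carried the knockout sample in channel 1 and positive on each of the 8 that carried it in channel 2. The ratios were therefore read as channel 1 over channel 2 and turned to knockout over wild type, the likely direction. On this reading Slc15a2 stood at -2.17, -2.74, -2.81 and -2.33 in mice 1 to 4. Read the other way, every sign given for Acy1, Acy3 and the other genes would be exchanged. The arrays carried values for 10134 to 18400 probes (50.2% to 91.1%).

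The sequences ahead of the transcription starts of the members are shown to place the genes in the genome and to let their start regions be compared. They are the 250 bases before each start, from RefSeq on GRCm38.p6, at chr9:106438237-106438486 (minus strand) for Acy1 and chr19:3986320-3986569 (plus strand) for Acy3. Capitals mark matches on either strand to any of 7 short motifs, which are spelled out after the sequences.
Acy1: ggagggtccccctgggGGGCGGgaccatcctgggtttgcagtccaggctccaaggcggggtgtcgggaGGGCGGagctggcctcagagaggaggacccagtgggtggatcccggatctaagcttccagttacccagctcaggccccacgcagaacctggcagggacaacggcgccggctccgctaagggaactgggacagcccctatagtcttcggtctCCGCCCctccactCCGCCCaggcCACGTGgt
Acy3: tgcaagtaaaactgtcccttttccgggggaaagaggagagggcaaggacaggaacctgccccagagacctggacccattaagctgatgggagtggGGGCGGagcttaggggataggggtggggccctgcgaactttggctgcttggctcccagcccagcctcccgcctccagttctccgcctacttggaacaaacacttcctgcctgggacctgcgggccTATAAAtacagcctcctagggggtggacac

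The stretches differ in kind. That of Acy1 held 4 matches to the GC box GGGCGG and 1 to the E-box CACGTG, and no TATAAA. That of Acy3 held 1 GC box and a TATAAA that begins 30 bases before the start. Of 32851 RefSeq stretches of the same length, 32.7% held a GC box, 6.02% an E-box and 12.4% a TATAAA. Neither held GTTAAT, a half-site of the kidney factor HNF1 (6.43% of stretches), AGGTCA, a nuclear receptor half-site (14% of stretches), AGAACA, a steroid receptor half-site (16.1%), or CCAAT (33.8%). The GC content was 68% for Acy1, with 14 CpG, and 60.4% for Acy3, with 6 CpG, against medians of 52.4% and 6. These are descriptions of letters and not of binding sites.

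Acy1 transcripts were below the wild-type pool in 3 of the 4 knockout kidneys and above it in mouse 3. In mouse 1 the log2 ratios were -0.22 and -0.25 on arrays 3 and 4, with arrays 1 and 2 blank. In mouse 2 they were -0.60, -0.52, -0.55 and -0.38 on arrays 1 to 4. In mouse 3 they were 0.08, 0.78 and 0.22 on arrays 1 to 3, with array 4 blank. All arrays of mouse 2 lay below 0 and all measured arrays of mouse 3 above it. In mouse 4 they were -0.15, -0.55 and -0.09 on arrays 1, 3 and 4, with array 2 blank.

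The value of a mouse is the mean of its 2 channel orientations. For Acy1 these values were -0.23, -0.51, 0.46 and -0.22 in mice 1 to 4, so that mouse 2 was 1.43-fold below the pool and mouse 3 was 1.38-fold above it. The distance from mouse 2 to mouse 3 was 0.97 on the log2 scale, or 1.97-fold. In rising order the mice ran 2, 1, 4, 3. The arrays of mouse 3 did not overlap those of any other mouse, and those of mice 1 and 2 did not overlap each other, whereas mouse 4 overlapped both mouse 1 and mouse 2. The height of mouse 3 leaned on 1 array, its only one with knockout RNA in channel 1. Without that array mouse 3 stood at 0.15 and was still the highest, and the distance to mouse 2 was 0.66. Without mouse 3 the other kidneys spanned 0.29.

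Acy3 transcripts were lower in mice 1 and 2 and higher in mice 3 and 4, with wider spread between arrays. In mouse 1 the log2 ratios on arrays 1 to 4 were -0.24, 0.01, -0.54 and 0.29, on either side of 0. In mouse 2 they were -0.76, -0.23, -0.51 and -0.06. In mouse 3 they were 0.11, 0.32, 0.21 and 0.08. Every array of mouse 2 lay below 0 and every array of mouse 3 above it. In mouse 4 they were 0.42, 0.58, -0.15 and 0.25, with array 3 below 0.

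**Figure D1:**
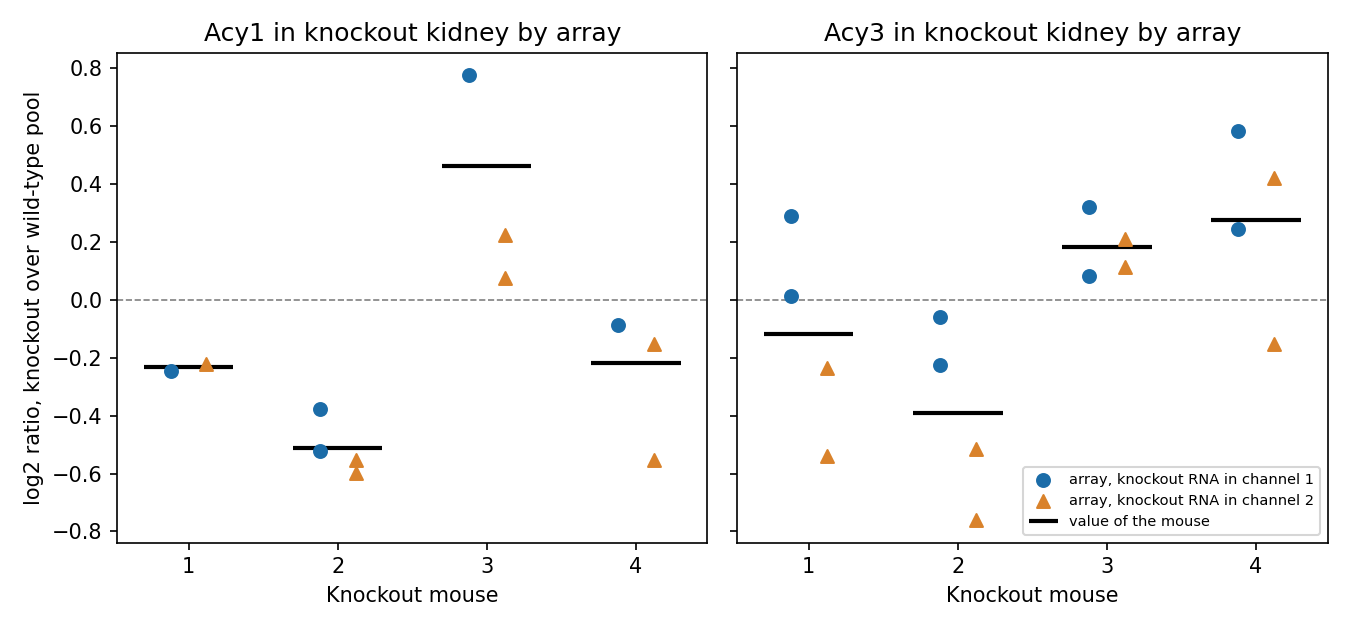
Log2 ratio of knockout over wild-type pool (vertical axis) on each array of the 4 knockout mice (horizontal axis), for Acy1 on the left and Acy3 on the right. Circles are arrays with knockout RNA in channel 1, triangles arrays with it in channel 2, and bars the value of the mouse. Mouse 2 is the lowest for both genes, at -0.51 and -0.39, and the bar of mouse 4 lies at -0.22 for Acy1 and at 0.27 for Acy3.

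The mouse values of Acy3 were -0.12, -0.39, 0.18 and 0.27. Mouse 2 was 1.31-fold below the pool and mouse 4 was 1.21-fold above it, and the distance between them was 0.66, or 1.59-fold. Without mouse 2 the other kidneys spanned 0.39. In rising order the mice ran 2, 1, 3, 4. Mice 2 and 3 were the one pair whose arrays did not overlap. Neighbours in the order, 2 and 1, 1 and 3, and 3 and 4, did not differ beyond the spread of their arrays. Mouse 4 stood at 0.50 on arrays 1 and 2 and at 0.05 on arrays 3 and 4. Within that second pair, array 3 was at -0.15 and array 4 at 0.25. Without array 3 mouse 4 stood at 0.42, and without array 1 at 0.13. The distance between the highest and the lowest mouse was 1.00 on arrays 1 and 2 and 0.43 on arrays 3 and 4.

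The standard deviation between mice was 0.41 for Acy1 and 0.30 for Acy3, against a median of 0.099 over the 6191 genes. Acy1 was the gene with the 54th largest standard deviation and Acy3 the 137th, between Fgfr1op2 (0.303) and Nup85 (0.299). The residual spread between arrays of a mouse was 0.19 for Acy1 and 0.22 for Acy3, near the median of 0.17 over all genes. For scale, 157 of 6191 genes (2.54%) passed a moderated F test between mice. That contrast chose the members, and nothing is read from their place in it.

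**Figure D2:**
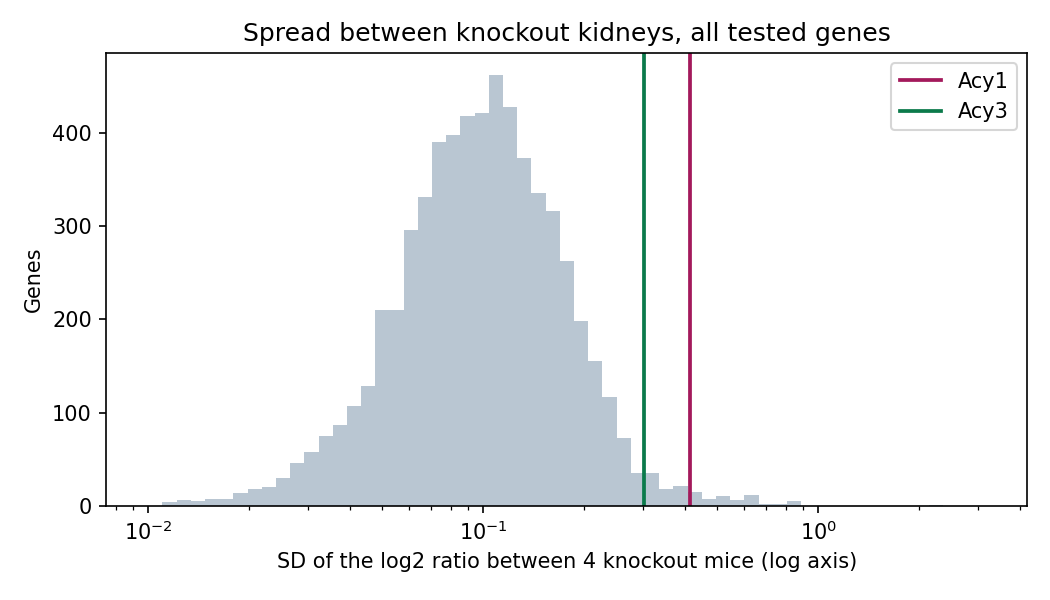
Number of genes (vertical axis) by the standard deviation of the log2 ratio between the 4 knockout mice (horizontal log axis), over 6191 tested genes. The lines mark Acy3 at 0.30 and Acy1 at 0.41, to the right of the bulk of genes around the median of 0.099.

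The channel of the knockout RNA was compared next, a measure that the choice of members did not use. Acy3 read higher with knockout RNA in channel 1 than in channel 2 in all 4 mice, by 0.54, 0.50, 0.04 and 0.28. The mean difference was 0.34 (SE 0.10, n = 4 mice), at an adjusted p of 0.177 in limma. For Acy1 the differences were -0.03, 0.13, 0.63 and 0.27, with a mean of 0.25 (SE 0.11) and an adjusted p of 0.268. No gene passed this comparison in limma (0 of 6191, 0%), while 1208 were at an unadjusted p under 0.05.

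The order of the mice held in part within each orientation. With knockout RNA in channel 1, Acy1 stood at -0.25, -0.45, 0.78 and -0.09 in mice 1 to 4, and with it in channel 2 at -0.22, -0.58, 0.15 and -0.35. Acy3 stood at 0.15, -0.14, 0.20 and 0.41 in channel 1 and at -0.39, -0.64, 0.16 and 0.13 in channel 2. Mouse 2 was the lowest for both genes in both orientations. Mouse 3 was the highest for Acy1 in both, and for Acy3 in channel 2.

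As a group the knockout kidneys did not differ detectably from the wild-type pool in either aminoacylase. The mean log2 ratio of Acy1 was -0.13 (SE 0.13, n = 4 mice, 95% confidence interval -0.42 to 0.17, adjusted p = 0.63 in limma), and 3 of 4 mice were below 0. That of Acy3 was -0.013 (SE 0.10, 95% confidence interval -0.24 to 0.21, adjusted p = 0.957), with 2 mice on each side. Neither is among the 13 of 6191 genes (0.21%) that passed. The direction of the means rested on single animals: without mouse 2 Acy1 stood at 0.0032 and Acy3 at 0.11. Without mouse 3 Acy1 kept its sign and stood at -0.32. Acy3 also turned to 0.022 without mouse 1, to 0.16 with knockout RNA in channel 1 alone and to 0.029 on arrays 1 and 2.

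Acy1 and Acy3 were both measured on 12 arrays and had the same sign on 9 of them. Over these arrays their ratios had an r of 0.63 after the mean of each channel orientation was taken off for each gene. The points share arrays, the wild-type pool and 4 animals, so this is a description. Mouse 2 was lowest for both genes, and mouse 4 was where they parted, below the pool for Acy1 and above it for Acy3.

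Enzymes that make, release or take apart N-acyl amino acids and mercapturic acids were examined as a list of 32 genes that includes the members. Of these 15 were measured, none passed against the wild-type pool (0.21% of all genes did), and the median log2 ratio was -0.06 against -0.0038 over all genes. Upstream of the aminoacylases, Apeh, which frees acetylated amino acids from the ends of peptides, stood at -0.02, -0.04, 0.22 and 0.12 in mice 1 to 4. Nat8, which acetylates cysteine conjugates to mercapturic acids and so runs opposite to Acy3, stood at -0.09, -0.25, -0.02 and -0.08. Apeh in mouse 2 overlapped mouse 1. Of the 13 genes of the list other than the members, 6 were lowest in mouse 2 and 2 were highest there, and 23% of all genes were lowest in mouse 2. The family members Nat8f1, Nat8f2 and Nat8f3 stood at 0.0084, -0.07 and -0.36 on average, and Nat8l, which makes N-acetylaspartate, at -0.06. Nat8f3 had the smallest adjusted p of the list (0.0772, SE 0.06) and was negative in 4 of 4 mice. Nat8 and its Nat8f relatives are close paralogs that a spotted cDNA may not tell apart.

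Of the dipeptidases and transferases that process glutathione conjugates before Nat8, only some were measured, and none of these passed either test. Ggt1, Ggt5, Dpep2, Dpep3 and Anpep of the list were not tested. Dpep1, the brush border dipeptidase that cuts cysteinylglycine, stood at -0.31 in mouse 1 and at 0.07, -0.05 and -0.06 in mice 2 to 4. Ggt6, of the gamma-glutamyl transferase family, stood at 1.15 in mouse 3 and between -0.08 and 0.25 elsewhere, but mouse 3 had 2 arrays, at 2.26 and 0.03. Cndp2, a cytosolic dipeptidase, stood at -0.27 (SE 0.05, adjusted p = 0.102) and Lap3, a leucine aminopeptidase, at -0.14 (SE 0.05, adjusted p = 0.229), each negative in all 4 mice. Aspg, an asparaginase, stood at 0.20 (SE 0.06, adjusted p = 0.173) and Faah, which splits fatty acid amides, at 0.03. Of the 13 genes of the list other than the members, none passed the F test between mice, against 2.54% of all genes. At an unadjusted p under 0.05 were 2 of them, against 13.6% of all genes. The members were left out of these counts because their spread chose them.

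Genes that conjugate acyl groups to glycine or supply and consume glycine formed a list of 15, of which 7 were measured and none passed in the comparison with the pool. The median log2 ratio was 0.09, against -0.0038 over all genes. Of these, 2 passed the F test between mice, as did 2.54% of all genes, and both were highest in mouse 2. Gldc, the decarboxylase of the glycine cleavage system, stood at 0.34, 0.66, -0.06 and 0.37 (adjusted p = 0.00307 in the F test). Its arrays in mouse 2 lay between 0.60 and 0.73 (3 arrays), those of mouse 3 between -0.16 and 0.05 (4 arrays), and they overlapped no other mouse.

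Shmt1, the cytosolic enzyme that interconverts serine and glycine, stood at 0.27, 0.47, -0.05 and -0.03 (adjusted p = 0.0336). Its arrays lay between 0.36 and 0.58 in mouse 2 and between -0.22 and 0.15 in mouse 3. Those of mouse 1, between 0.07 and 0.48, overlapped both. Mouse 2 was thus the highest for Gldc and Shmt1 and the lowest for Acy1 and Acy3, while 3 of the 7 genes of the list were highest in mouse 2. The share of all genes highest in mouse 2 was not counted. Gldc did not pass without mouse 2 (adjusted p = 0.0887) or without mouse 3 (0.386), and Shmt1 passed with none of the mice left out (0.0528 to 0.467). Glyat, which conjugates acyl groups to glycine, stood at -0.04 on average, and its relatives in acyl-CoA supply, Acsm1 and Acsm2, at 0.10 and -0.04. Acss1, which activates acetate, stood at 0.03 and Gcat at 0.09.

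**Figure D3:**
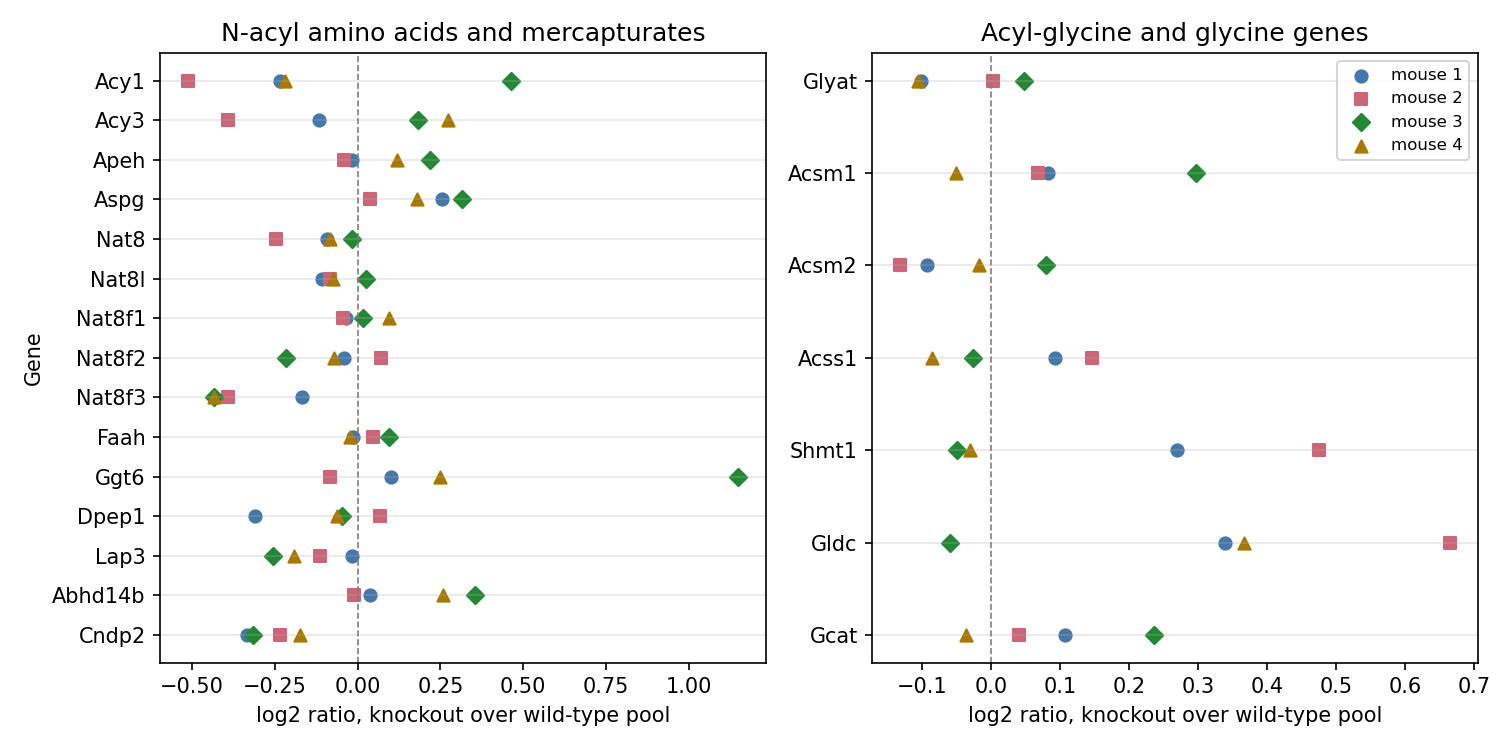
Log2 ratio of knockout over wild-type pool (horizontal axis) in each of the 4 knockout mice (symbols) for the measured genes of the N-acyl amino acid and mercapturate list (left) and of the acyl-glycine list (right). The 2 panels have different horizontal scales. Mouse 2 lies at the low end for Acy1 and Acy3 and at the high end for Gldc (0.66) and Shmt1 (0.47), and the mouse 3 point of Ggt6 at 1.15 is the mean of 2 arrays that disagree.

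Of 31 proximal tubule markers 16 were measured, and their median log2 ratio was 0.05, -0.0050, 0.07 and -0.07 in mice 1 to 4 and 0.02 for the mean over mice. The lowest and highest single markers were -0.18 and 0.43 in mouse 1, -0.21 and 0.34 in mouse 2, -0.20 and 0.57 in mouse 3, and -0.18 and 0.59 in mouse 4. The median marker was therefore near 0 in every kidney. Of the 16 markers, 9 were lowest in mouse 2 and 2 were highest there, and 23% of all genes were lowest there. Acy1 stood at -0.51 and Acy3 at -0.39 in that mouse. Whether the share of proximal tubule cells had a part in this was not tested. Slc22a8, the basolateral organic anion transporter, was higher against the pool at 0.48 (SE 0.05, adjusted p = 0.0149), the one marker of the 16 to pass (0.21% of all genes did). It did not pass with any mouse left out (adjusted p from 0.0612 to 0.133), with knockout RNA in channel 2 only (0.166), on arrays 1 and 2 (0.0701) or with at least 1 value per mouse (0.0862), while its ratio lay between 0.37 and 0.60. The next by p were Slc13a3, a dicarboxylate carrier, at 0.21, Cyp4b1 at -0.15 and the inositol oxygenase Miox at 0.16. None of the 16 passed the F test between mice, which 2.54% of all genes passed, so that count shows nothing particular to them. Of the 16 markers 13 stood higher in mouse 3 than in mouse 2, a larger share than the 47.4% of all genes that did.

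Of 62 markers of other cells that a kidney sample can hold, 27 were measured and none passed against the wild-type pool. The smallest p belonged to Lpl (-0.23), Aqp2 (0.27), Col3a1 (-0.32) and Fbln1 (-0.18). The F test between mice passed for 4 of the 27 (2.54% of all genes did): Umod (adjusted p = 0.0125), Col1a1 (0.042), Fabp4 (0.0108) and Svs5 (2.2e-05). Each was lost when some single mouse was left out. Umod did not pass without mouse 1 (0.0565), mouse 2 (0.239) or mouse 3 (0.0751), and Col1a1 passed only without mouse 4 (0.0367). Fabp4 did not pass without mouse 2 (0.252) or mouse 4 (0.125), and Svs5 did not pass without mouse 3 (0.222). Svs5, the 1 measured of 7 seminal vesicle markers, encodes a protein of the gland's secretion and stood at 0.21, -0.09, 4.94 and 1.09 in mice 1 to 4. Mice 1 and 2 each had a value on only 2 arrays, in mouse 2 at -0.26 and 0.08. Svs5 was thus highest in mouse 3, where Acy1 stood at 0.46 and Acy3 at 0.18. It was next in mouse 4, where Acy1 stood at -0.22 and Acy3 at 0.27. Its part in the ratios of Acy1 and Acy3 was not tested. The files hold ratios and no intensities, so no marker can be called absent.

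Genes next to the members on their chromosomes were compared for the same order of mice. Acy1 lies on chromosome 9, and 5 of its 10 nearest protein-coding genes were tested. Those that follow it in coordinate order, Abhd14a, Abhd14b and Pcbp4, all stood lower in mice 1 and 2 than in mice 3 and 4. In rising order Abhd14b and Pcbp4 ran 2, 1, 4, 3, as Acy1 did, and Abhd14a ran 1, 2, 4, 3. None of them passed the F test between mice, and the share of all genes with such orders was not counted. Abhd14a, an alpha/beta hydrolase gene and the immediate neighbour, stood at -0.22, -0.16, 0.23 and 0.17 (adjusted p = 0.0608 in the F test). Abhd14b stood at 0.04, -0.01, 0.35 and 0.26 (0.202), and Pcbp4, an RNA-binding protein, at -0.07, -0.09, 0.18 and 0.08 (0.344). In mouse 4 these genes were above the pool while Acy1 was below it.

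On the other side of Acy1, Dusp7, a phosphatase of MAP kinases, stood between 0.01 and 0.13 in all mice. Alas1, the first enzyme of heme synthesis, 4 places away, stood at 0.41, -0.08, -0.46 and -0.29 (adjusted p = 0.0033 in the F test), lowest in the mouse where Acy1 was highest. It was the 1 of 5 neighbours to pass (2.54% of all genes did), and it did not pass without mouse 1 (adjusted p = 0.377). None of the 5 passed against the wild-type pool (0.21% of all genes did). Acy3 lies on chromosome 19, where 8 of its 10 nearest genes were tested and none passed either test. Nudt8 stood at -0.04, -0.21, 0.11 and 0.0083 and Ndufs8, a subunit of complex I, at -0.04, -0.14, 0.07 and 0.11, lowest in mouse 2 as Acy3 was. Aldh3b2, the nearest tested gene before Acy3, was instead highest in mouse 2 (0.27) and lowest in mouse 4 (0.05). The others, Aldh3b1, Unc93b1, Doc2g, Ndufv1 and Gstp1, had mean ratios between -0.0017 and 0.18. Of these, Aldh3b1 (-0.057), Unc93b1 (-0.015), Ndufv1 (0.0049) and Gstp1 (0.099) were also lowest in mouse 2, as were 23% of all genes. Doc2g was lowest in mouse 3, at -0.22. Neither member overlaps another gene in the gene table.

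**Figure D4:**
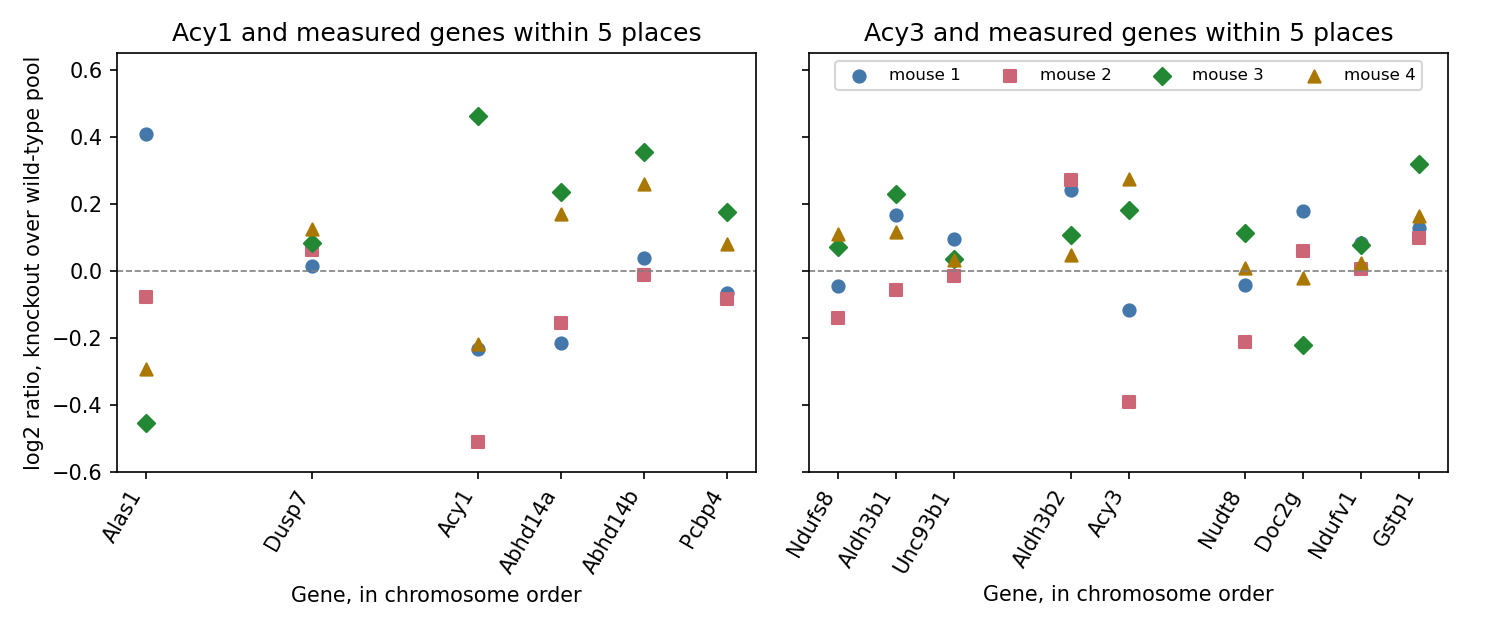
Log2 ratio of knockout over wild-type pool (vertical axis) in the 4 knockout mice (symbols) for Acy1 (left) and Acy3 (right) and the tested genes within 5 places in chromosome order (horizontal axis, gaps are genes not tested). Abhd14a, Abhd14b and Pcbp4 show mice 3 and 4 above mice 1 and 2, though none of them passed the F test between mice. For Acy1 mouse 3 alone is high at 0.46, and Alas1 has mouse 3 lowest at -0.46.

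The genes whose pattern over arrays was most like that of a member were found by Pearson's r after the mean of each orientation was taken off. For Acy3, over 16 arrays and 2825 genes, they were Ctdspl (0.92), Bckdk (0.91), Umod (0.90), Clu (0.90), Evc (0.89) and Napsa (0.88). Bckdk is the kinase that restrains branched-chain amino acid breakdown, Umod is uromodulin of the loop of Henle and Napsa is an aspartic protease of the proximal tubule. Umod stood at -0.14, -0.33, 0.19 and 0.27 in mice 1 to 4, close to the values of Acy3 in size as well as order. Clu, the clusterin gene, stood at 0.14, -0.03, 0.32 and 0.46.

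For Acy1, over its 12 arrays and 3362 genes, they were Atp13a1 (0.92), Tmbim6 (0.92), Ift122 (0.92), Tmem205 (0.88), Cyp2d9 (0.88) and Cda (0.88). Cyp2d9, a cytochrome P450, had the widest range, at 0.17, -0.30, 0.54 and -0.01 in mice 1 to 4, and Cda, the cytidine deaminase, stood at 0.18, 0.04, 0.40 and 0.23. Many genes come close to any profile set by 4 animals: the 95th percentile of r over all genes was 0.67 for Acy1 and 0.68 for Acy3. At r = 0.63, Acy3 was the 225th gene in likeness to Acy1.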

How the data were processed

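Total RNA of single knockout kidneys and of the wild-type pool was labelled indirectly and co-hybridised, and per the labels the authors quantified slides in GenePix Pro 3.0, subtracted background and set each array's median ratio to 1. The authors deposited log2 ratios per probe and array. Their base was read from the values and their direction from Slc15a2. Intensities and the filter behind blank cells were not used here. The median of every array was set to 0. The 10804 probes measured in each orientation in all 4 mice were tested, and probes naming the same single gene were averaged. Of 11723 probes with 1 symbol, 11590 matched the GRCm38.p6 gene table by identifier. Ratios and orientation differences were tested against 0, two-sided, with limma 3.58.1 in R 4.3.3, Benjamini-Hochberg adjustment over 6191 genes and a threshold of 0.05. The F test between mice took arrays as technical replicates with a dye term, so it compares these 4 animals and not genotypes. The fits were tested on simulated data. Changes of 0.5 were found for 100 of 100 genes against the pool, 75 of 100 between mice and 97 of 100 between orientations. The simulated spread between mice was far below that of Acy1 and Acy3, so nothing follows for genes as variable as these.

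The members and gene lists were chosen with earlier results of these data known. Genes were named by rule: Slc15a2, the members, measured genes of both metabolic lists and within 5 places in gene order, 4 markers of proximal tubule and 4 of other cells with the smallest p, and the 6 genes most like each member. The rule asked for values on all 16 arrays; Acy1 has 12, so its own arrays were used, a change made after the data were seen. Svs5, the other markers past the F test, Fgfr1op2 and Nup85 were named after their values were seen. Alternatives covered centring, array scale, blanks, orientation, array pairs, replication, probes and each mouse left out. Precision is limited by there being 4 mice. Nothing says that the animals came from separate litters.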

Additional observations from a re-analysis of the deposited data

Results flagged for a closer look

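Among 28 groups of 4 values examined, 1 held a value far from the other 3, and chance alone marks about 5% of groups. Nat8f3 stood at -0.17 in mouse 1 against -0.39, -0.43 and -0.43 in mice 2 to 4. On the arrays of mouse 1 it lay between -0.44 and -0.01.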

How the results depend on the processing

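Neither aminoacylase passed against the wild-type pool under any alternative that gave a value (13 for Acy1, 16 for Acy3; adjusted p from 0.296 to 0.998 for Acy1 and from 0.38 to 0.99 for Acy3). With a mouse left out, Acy1 lay between -0.32 and 0.0032 and Acy3 between -0.11 and 0.11, and the signs turned without mouse 2 for both and without mouse 1 for Acy3. Acy3 also turned to 0.16 with knockout RNA in channel 1 only and to 0.029 on arrays 1 and 2. The cause was not tested. Acy1 gave no value for probes complete on 16 arrays or for arrays 1 and 2 or 3 and 4 alone, because of its blanks.

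Of 6191 genes, 13 passed against the pool. This count was 40 for probes complete on all arrays and 2 with at least 1 value per mouse, 1 with knockout RNA in channel 2 only, 4 on arrays 1 and 2, 8 on arrays 3 and 4, and 401 with 16 arrays and the mouse as a random block. It was 1 to 6 with a mouse left out. The random block fit took the correlation between arrays of a mouse as 0.053. Technical arrays thus counted nearly as independent samples in it, although n is 4 mice. The count between mice (157) was 41 to 135 with a mouse left out, on fewer arrays. The causes were otherwise not tested. The ranges between mice kept mouse 2 lowest for both genes when any single array was dropped, a check chosen once the values were known; without array 1 of mouse 4, mouse 3 was the highest for Acy3. The small number of animals and blank cells limit these values.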
